A study of Mus musculus with 15 samples.

Results

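The 42 genes described here encode enzymes and binding proteins that write, erase or read DNA methylation and histone modifications. They were chosen by symbol from the 45777 features measured in striatal RNA of male mice descended from methamphetamine-treated or saline-treated males. The list holds 3 DNA methyltransferase genes and their cofactor Uhrf1, 4 genes of DNA demethylation and 4 methyl-CpG-binding domain genes. Of histone modifiers it holds 11 histone deacetylase genes, the sirtuin gene Sirt1, 4 acetyltransferase genes and 4 genes of Polycomb repressive complex 2 (PRC2). It also holds 5 H3K9 methyltransferase genes, the methyltransferase genes Kmt2a and Dot1l, the demethylase genes Kdm1a and Kdm6b, and the corepressor gene Trim28. All 42 genes were found in the tables of both generations, and all 42 passed the filter on low counts in every comparison.

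The striatum is a forebrain nucleus made up mostly of spiny projection neurons, which carry dopamine receptors. The mice were wild-type ICR animals, an outbred stock, and were 7 weeks old. Male founders aged 6 weeks received methamphetamine (METH, a psychostimulant that releases dopamine) at 5 mg/kg or saline at 10 mL/kg, subcutaneously on each of 21 days, and were then mated with untreated females. The F1 mice are their sons, and the F2 mice are grandsons through F1 males and untreated females. None of the animals measured is described as treated itself, and the groups are named for the founder's treatment: there were 4 F1 saline mice and 3 F1 METH mice, and 4 mice in each of the F2 saline and F2 METH groups. No label names the litter or founder of an animal. Littermates may therefore be among them, and p-values measure only the spread between these animals.

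DNA methyltransferases place methyl groups on cytosine, mainly in CpG dinucleotides. Dnmt1 copies the pattern after replication, Dnmt3a and Dnmt3b lay down new marks, and TET enzymes begin their removal by oxidation. Acetylation of histone tails by acetyltransferases is generally found at active genes and is taken off by deacetylases, while methylation of histone tails goes with activity or silence according to the residue. In neurons of the striatum, class IIa deacetylases, the H3K9 methyltransferase gene Ehmt2 and the DNA methyltransferase gene Dnmt3a have been studied in responses to psychostimulants given to the animal itself.

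Total counts ran from 31563806 to 50573906 per library, and the 42 genes together took 0.265% to 0.314% of them. The CPM values below are counts per 1000000, scaled to library totals adjusted by the TMM method, and values follow replicate number within a group. Drd1 and Ppp1r1b, defining genes of spiny projection neurons, were at 159.9 to 296 and 1335 to 2423 CPM, which fits the tissue label. The labels also give the cell type as neuronal, but the 10 astrocyte markers summed to at least 3747 CPM in every library. Slc17a7, a glutamate transporter gene of cortical excitatory neurons, exceeded 100 CPM in 5 of the 15 libraries.

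RefSeq promoter windows, from 250 bases before to 50 bases after each annotated start in assembly GRCm38.p6, were matched by symbol for 36 of the 42 genes, which together have 48 windows. These windows held a median of 25.5 CpG dinucleotides (range 0 to 57), against a median of 7 over all 32841 windows in the table. At least 10 CpG were present in 41 of the 48 windows (85.4%), against 43.5% of all windows. The letters GGGCGG (GC box), searched on both strands, occurred in 66.7% of the genes' windows and in 35.7% of all windows. TGACGTCA (CRE) occurred in 4.17% against 1.79%. A match is a description of the letters and not a bound site. Windows of Dnmt3a (3 starts) and Eed (1 start), the genes with the smallest p in F1 and F2, are shown beside the first window of Hdac9, the only member window with 0 CpG. The Dnmt3a window is chr12:3806730-3807029 on the plus strand, with 46 CpG. The Eed window is chr7:89980927-89981226 on the minus strand, with 17 CpG, and the Hdac9 window is chr12:34917046-34917345 on the minus strand. All are written 5′ to 3′ along the gene, with each CpG in capitals:
Dnmt3a: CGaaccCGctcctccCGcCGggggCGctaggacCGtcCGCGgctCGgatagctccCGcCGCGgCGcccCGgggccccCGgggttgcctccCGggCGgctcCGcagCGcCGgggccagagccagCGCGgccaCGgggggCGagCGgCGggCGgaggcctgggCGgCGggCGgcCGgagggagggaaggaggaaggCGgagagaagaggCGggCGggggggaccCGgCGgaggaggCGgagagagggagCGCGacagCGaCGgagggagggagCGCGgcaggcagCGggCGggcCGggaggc
Eed: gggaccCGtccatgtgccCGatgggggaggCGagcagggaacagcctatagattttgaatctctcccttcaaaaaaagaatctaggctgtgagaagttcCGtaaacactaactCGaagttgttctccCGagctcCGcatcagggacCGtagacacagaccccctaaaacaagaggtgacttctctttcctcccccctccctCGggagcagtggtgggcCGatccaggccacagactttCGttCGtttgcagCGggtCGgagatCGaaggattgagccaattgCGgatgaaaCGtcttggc
Hdac9: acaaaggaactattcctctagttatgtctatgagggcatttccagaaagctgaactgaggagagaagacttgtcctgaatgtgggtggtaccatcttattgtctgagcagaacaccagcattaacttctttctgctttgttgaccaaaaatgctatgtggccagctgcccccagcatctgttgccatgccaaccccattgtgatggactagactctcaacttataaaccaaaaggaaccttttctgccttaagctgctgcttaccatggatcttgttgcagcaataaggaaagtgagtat

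The levels of the 42 genes spanned a wide range, compared here between genes in the deposited TPM, transcripts per 1000000, which divides by gene length. Hdac11, the class IV deacetylase gene, had the highest mean over the 15 libraries at 218 TPM (range 186 to 246). Mbd3, a subunit gene of the NuRD deacetylase complex, followed at 184 TPM (168 to 231) and Ehmt2, which encodes a methyltransferase for H3K9, at 182 TPM (167 to 209). The ranges of these 3 genes overlap, but within each of the 15 libraries Hdac11 was above both Mbd3 and Ehmt2. Mbd3 was above Ehmt2 in some libraries and below it in others, so the order of that pair is not separated. Hdac5, a class IIa deacetylase gene, was the fourth and last with a mean above 100 TPM, at 143 TPM (119.5 to 176). Its highest library lay below the lowest library of Hdac11.

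At the other end, Dnmt3b was at 0.384 TPM (0.208 to 0.565), below every other member in each library. Uhrf1, which encodes the protein that guides Dnmt1 to newly replicated DNA, was at 2.49 TPM (1.19 to 4.77), and Suv39h2, an H3K9 methyltransferase gene, was at 2.77 TPM (2.24 to 3.28); their ranges overlap. Between these ends, 28 genes had means from 10 to 100 TPM and 9 from 1 to 10 TPM. The median of the 42 means was 21.2 TPM, against 13.4 TPM over the 17838 genes tested in both generations.

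Within gene families the order was steady across libraries. Dnmt3a exceeded Dnmt1 in all 15 libraries, by a TPM ratio of 1.47 to 2.27 (median 1.83), and exceeded Dnmt3b by 67.5 to 222 (median 116). Among the TET genes, which encode the 5-methylcytosine dioxygenases, Tet3 exceeded Tet1 by a ratio of 4.51 to 7.67 (median 5.65) and Tet2 by 1.021 to 1.77 (median 1.34). Ezh1 and Ezh2 encode alternative catalytic subunits of PRC2, and Ezh1 was the higher in all 15 libraries, by 3.68 to 5.09 (median 4.39). The paired class I deacetylase genes stood at an Hdac2 to Hdac1 ratio of 3.92 to 5.94 (median 5.04), and the H3K9 methyltransferase partners at an Ehmt2 to Ehmt1 ratio of 5.71 to 11.8 (median 9.38). Kat2a exceeded its paralog Kat2b by 3.25 to 5.45 (median 4.18). The exception was the pair of coactivator acetyltransferase genes Crebbp and Ep300, whose ratio of 0.882 to 1.37 (median 0.998) was above 1 in 7 of the 15 libraries.

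**Figure D1:**
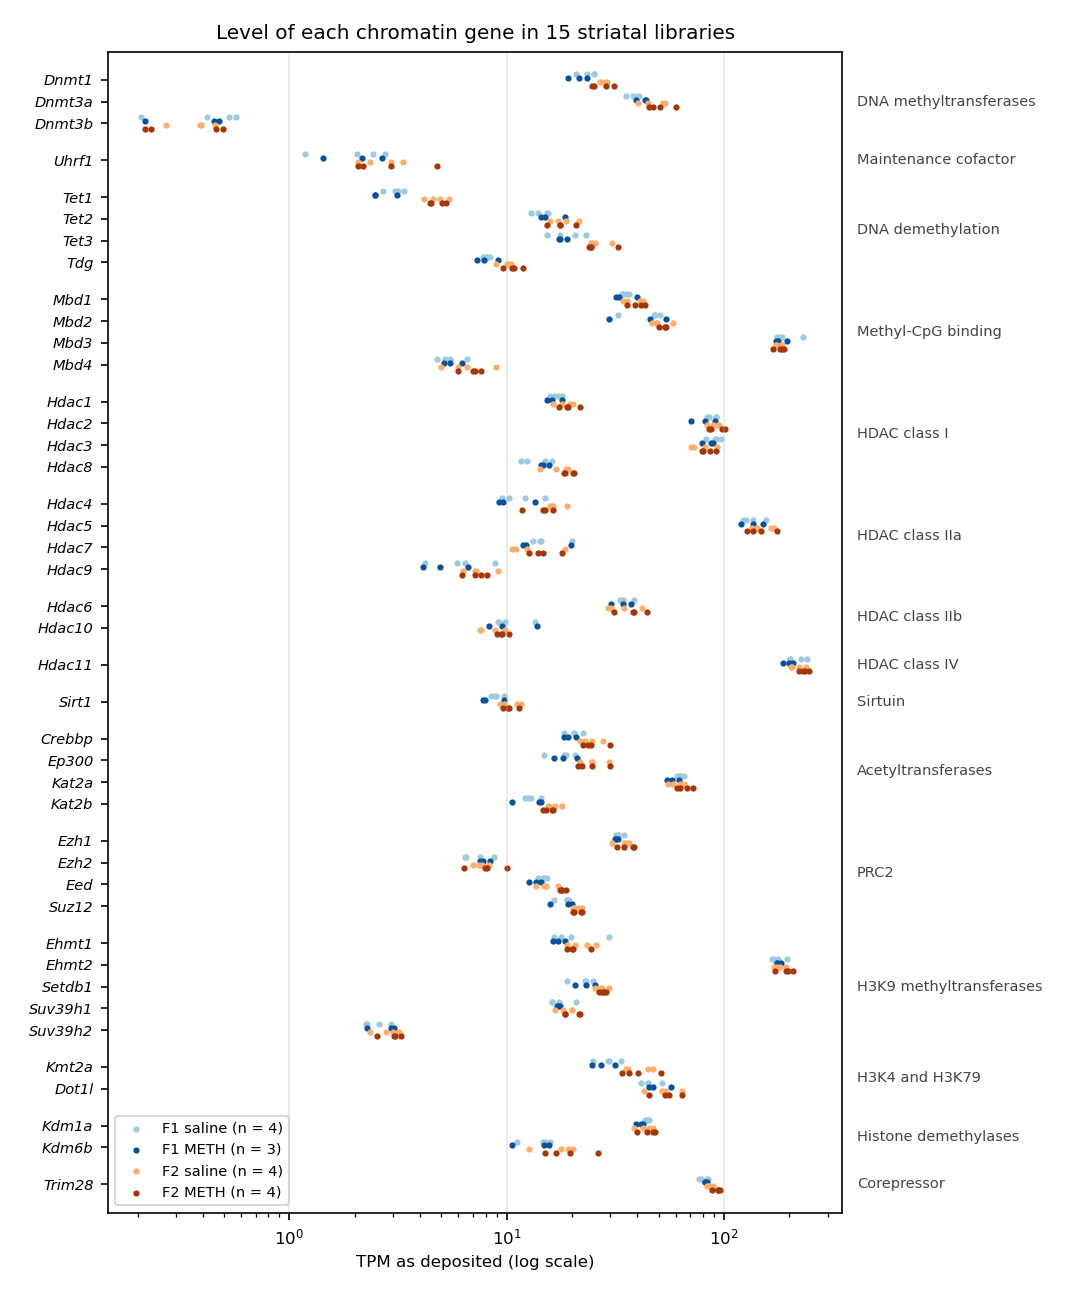
Deposited TPM (log scale) of the 42 genes in the 15 libraries, grouped by role; each point is 1 library, coloured by group. Hdac11, Mbd3, Ehmt2 and Hdac5 lie furthest right and Dnmt3b lies below 1 TPM in every library.

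TPM of 7 genes lay above every F1 library in every F2 library: Kmt2a, Setdb1, Tet3, Ep300, Suz12, Kat2b and Tet1. That is 7 of 42, where 8.02% of all tested genes did so, and 0 of 42 lay below, against 2.84% of all tested genes. Tet1, for example, was at 3.06, 3.36, 3.16 and 2.70 TPM in F1 saline and 2.47, 3.13 and 2.47 TPM in F1 METH libraries, and at 4.92, 4.57, 4.17 and 5.41 TPM in F2 saline and 5.25, 4.43, 5.04 and 4.47 TPM in F2 METH libraries. In CPM, which was scaled within each generation, Tet1 alone of these genes was separated, at 14.8 to 18.8 in F1 and 21.9 to 26.3 in F2. The CPM of the others overlapped between generations, as for Suz12 at 30.4 to 36.5 in F1 and 31.9 to 37.2 in F2. Their separation thus rests on the TPM scale. The generations were deposited as separate tables, so generation and table cannot be told apart, and no test of this difference between generations was made.

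The first comparison asked whether these genes differed in sons according to the treatment of their sire. Using edgeR's quasi-likelihood test over 18499 genes with Benjamini-Hochberg adjustment, 0 of the 42 genes passed an adjusted p of 0.05, and 0% of all genes did so. The smallest adjusted p among the 42 was 0.994. At an unadjusted p under 0.05 there was 1 of 42, Dnmt3a, against 4.18% of all genes. DESeq2 and limma-voom also called 0 of the 42, with 1 each at an unadjusted p under 0.05. The log2 fold change of METH over saline was above 0 for 26 genes and below 0 for 16, with a median of 0.025, against 49.1% above 0 and a median of -0.0035 over all genes. Every METH library lay above every saline library for 1 of 42 genes, against 3.08% of all genes, and below for 0 of 42, against 2.42%.

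The second comparison asked the same of grandsons. Over 18093 genes, 0 of the 42 passed by edgeR's adjusted p, and 0% of all genes did so; the smallest adjusted p among the 42 was 0.960. At an unadjusted p under 0.05 there were 2 of 42, Eed and Hdac4, against 4.77% of all genes, and DESeq2 and limma-voom gave the same count and likewise called 0. The fold change was above 0 for 27 genes and below 0 for 15, with a median of 0.046, against 49.5% above 0 and a median of -0.0020 over all genes. METH libraries all lay above the saline libraries for 3 of 42 genes (Kat2a, Eed and Trim28), against 1.35% of all genes, and below for 0 of 42, against 1.19%.

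The size of change that the data leave room for was small for most of the 42 genes. The 95% interval of the fold change lay within 1.5-fold in either direction for 37 of 42 genes in F1 and 40 of 42 in F2, against 58.3% and 66.9% of all genes tested. It lay within 2-fold for 41 of 42 genes in F1 and 42 of 42 in F2, against 77.2% and 84.5% of all genes. The widest was that of Dnmt3b, the lowest expressed member, whose log2 interval ran from -1.01 to 0.89 in F1. Narrow intervals were not particular to the 42. Of the 110 other chromatin genes tested, described further on, 90% in F1 and 93.6% in F2 lay within 1.5-fold. Within 2-fold lay 99.1% and 98.2% of them.

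**Figure D2:**
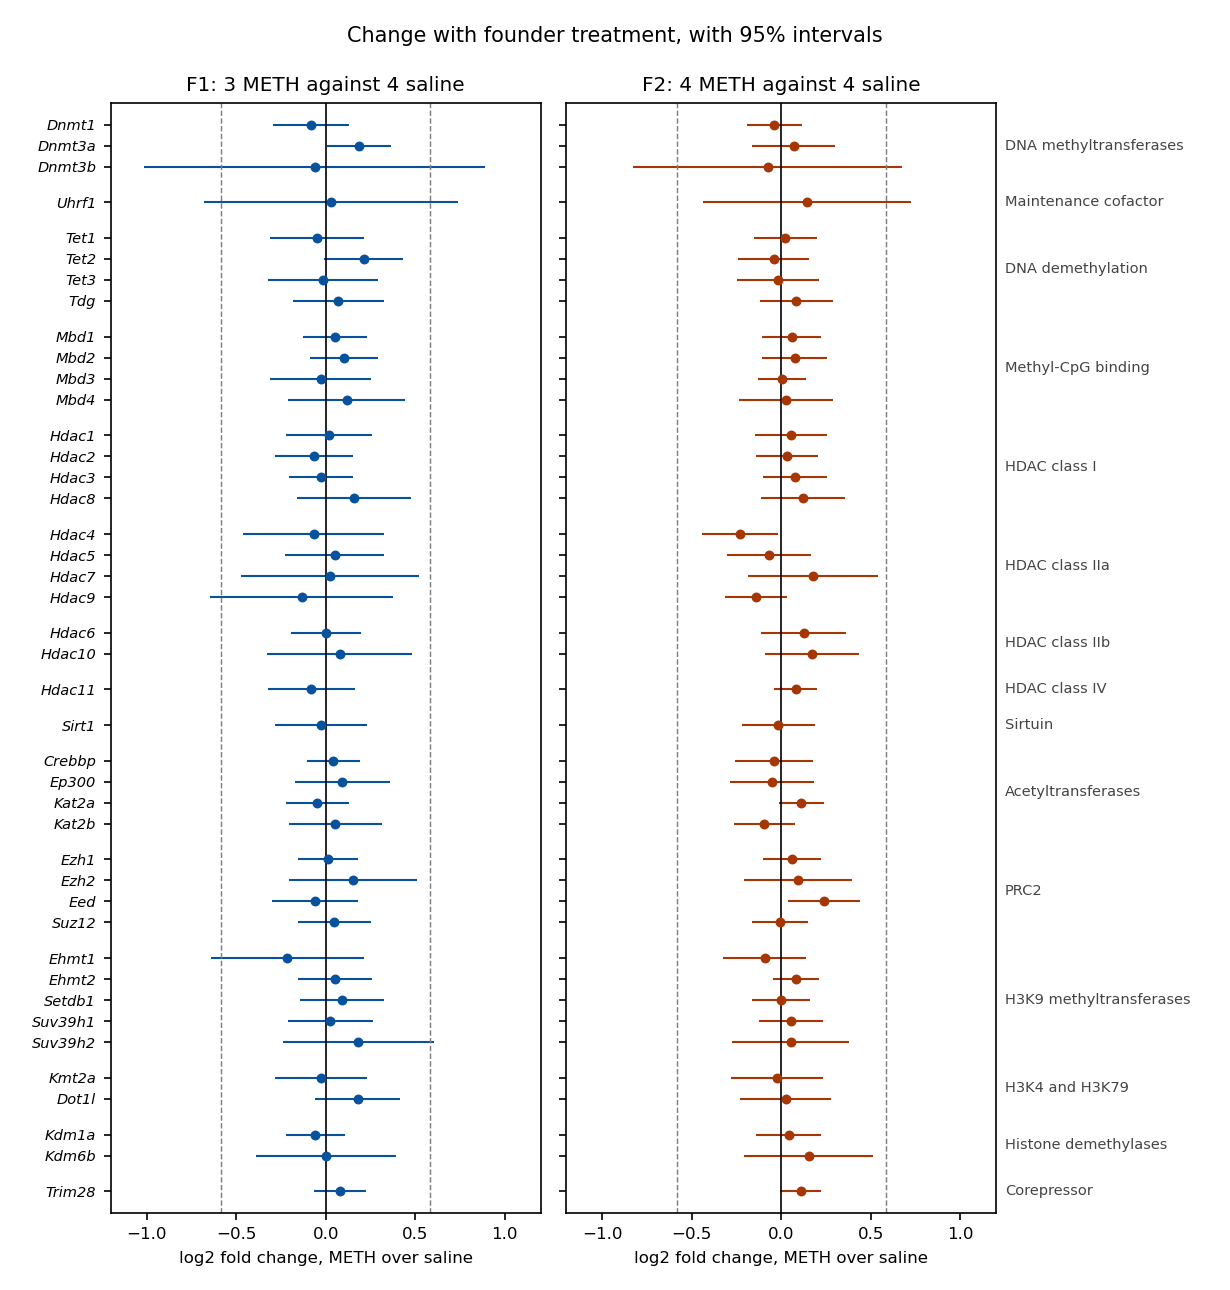
Log2 fold change of METH over saline for each of the 42 genes in F1 (left) and F2 (right); points are edgeR estimates, bars are 95% intervals and dashed lines mark a 1.5-fold change. Intervals that leave out 0 are those of Dnmt3a in F1 and of Eed and Hdac4 in F2, none of which passed the adjusted threshold.

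Of the writers of DNA methylation, Dnmt3a (gene ID 13435, chromosome 12, 3801559 to 3914443), a de novo methyltransferase gene, had the smallest p of the 42 in F1. It was at 180.4, 155, 170.2 and 183 CPM in F1 saline and at 194, 192 and 201 CPM in F1 METH libraries. Every METH library lay above every saline library, the highest saline library being replicate 4. Its group means were 172 ± 12.7 CPM (SD, n = 4) and 196 ± 4.79 CPM (SD, n = 3). By edgeR, the log2 fold change was 0.19 (SE 0.079, unadjusted p = 0.0426), with an adjusted p of 0.994. In F2 it was at 200.4, 219.9, 163 and 210.1 CPM in saline and 185, 202, 243 and 202 CPM in METH libraries, which overlap, and the log2 fold change was 0.069 (SE 0.10, unadjusted p = 0.522) by edgeR. The difference between the generations' changes was -0.13 (SE 0.14, unadjusted p = 0.373) by edgeR. The annotated starts of Dnmt3a are not separated by gene-level counts.

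Markers of other cells stood beside the Dnmt3a values in F1. Of 10 endothelial markers 9 were higher in METH mice, with summed levels of 387 to 451 CPM in saline and 473 to 546 CPM in METH libraries. All 8 oligodendrocyte precursor markers and all 10 oligodendrocyte markers were higher; the precursor markers summed to 557 to 612 CPM against 616 to 782 CPM and the mature markers to 6683 to 8355 CPM against 7481 to 10525 CPM. Microglial markers were higher for 9 of 10 (median log2 fold change 0.17; summed 352 to 434 CPM against 372 to 531 CPM), astrocyte markers for 8 of 10 (median 0.18; 3747 to 4329 CPM against 4265 to 6158 CPM) and spiny projection neuron markers for 10 of 12 (median 0.12; 6292 to 9829 CPM against 7607 to 10968 CPM). Lower in METH mice were all 10 cortical excitatory neuron markers (median -0.62; 51.1 to 869 CPM against 71.03 to 645 CPM) and 9 of 12 proliferation and neuroblast markers (median -0.14; 332 to 395 CPM against 291 to 326 CPM). All 5 erythrocyte markers were lower too (median -1.15), summing to 844 CPM in saline replicate 4, to 115 to 193 CPM in the other saline libraries and to 124 to 169.6 CPM in METH libraries. None of the markers in these 9 lists was at 0 in all libraries, and none passed the adjusted threshold. With the cortical marker mean as a covariate, Dnmt3a kept an unadjusted edgeR p under 0.05 in F1. No member passed the adjusted threshold in that fit. The part of the other lists in the F1 values of Dnmt3a and the other members was not tested in this way. In bulk tissue, fewer cells of a type and less RNA per cell cannot be told apart. Without the 3 F1 libraries above 100 CPM of Slc17a7, the Dnmt3a fold change was 0.20 with an unadjusted edgeR p of 0.140.

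Dnmt1, the maintenance methyltransferase gene, was at 55.7, 51.4, 53.6 and 47.6 CPM in F1 saline and 50.5, 43.5 and 53.5 CPM in F1 METH libraries. In F2 it was at 55.7, 59.05, 56.1 and 54.8 CPM in saline and 51.1, 51.2, 60.04 and 57.4 CPM in METH libraries. The groups overlapped in both generations, with log2 fold changes of -0.084 (SE 0.094, unadjusted p = 0.395) in F1 and -0.039 (SE 0.070, unadjusted p = 0.590) in F2 by edgeR. Dnmt3b, the other de novo enzyme gene, was near or below 1 CPM throughout, at 0.855, 0.480, 1.024 and 1.05 CPM in F1 saline, 0.998, 0.416 and 1.06 CPM in F1 METH, 0.566, 0.814, 0.736 and 0.892 CPM in F2 saline and 0.971, 0.447, 0.980 and 0.473 CPM in F2 METH libraries. Its log2 fold changes by edgeR were -0.060 (SE 0.42, unadjusted p = 0.889) in F1 and -0.076 (SE 0.34, unadjusted p = 0.826) in F2, with standard errors above those of Dnmt1. Uhrf1 ran from 1.78 to 4.17 CPM in F1 saline, from 2.25 to 3.98 CPM in F1 METH, from 2.85 to 4.47 CPM in F2 saline and from 2.81 to 6.13 CPM in F2 METH libraries. Its log2 fold changes were 0.030 (SE 0.31) and 0.14 (SE 0.26), and the groups overlapped.

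Among the erasers of DNA methylation, Tet2 (gene ID 214133, chromosome 3, 133463677 to 133545136) had the next smallest p in F1. It was at 57.97, 57.7, 51.04 and 50.9 CPM in F1 saline and 60.6, 57.1 and 71.3 CPM in F1 METH libraries. Replicate 3 of the METH group was the highest, and replicate 2 lay below the top saline libraries, so the groups overlap. The log2 fold change by edgeR was 0.21 (SE 0.10, unadjusted p = 0.0597). Without METH replicate 3 it was 0.11 with an unadjusted edgeR p of 0.246, and without METH replicate 2 it was 0.28 with one of 0.0299. With the cortical marker mean as a covariate it was 0.23, with an unadjusted edgeR p of 0.0274 and an adjusted p of 0.671. Without the 3 F1 libraries above 100 CPM of Slc17a7 it was 0.12 with an unadjusted edgeR p of 0.336. In F2 the gene was at 66.7, 60.2, 56.4 and 70.96 CPM in saline and 54.7, 62.4, 68.7 and 60.98 CPM in METH libraries, and its log2 fold change was -0.042 (SE 0.090, unadjusted p = 0.647). The difference between the generations' changes was -0.26 (SE 0.13, unadjusted p = 0.0667) by edgeR, short of the unadjusted threshold.

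Tet1 was at 16.9, 18.5, 16.6 and 15.9 CPM in F1 saline and 15.7, 18.8 and 14.8 CPM in F1 METH libraries, and at 24.8, 22.1, 22.5 and 23.9 CPM in F2 saline and 26.3, 22.8, 23.7 and 21.9 CPM in F2 METH libraries. Tet3 was at 106, 92.5, 76.4 and 70.97 CPM in F1 saline and 84.6, 81.2 and 90.9 CPM in F1 METH libraries, and at 104, 128, 108 and 97.1 CPM in F2 saline and 102, 101, 129 and 100.2 CPM in F2 METH libraries. For both genes the treatment groups overlapped in each generation. By edgeR, the log2 fold changes of Tet1 were -0.047 (SE 0.12, unadjusted p = 0.695) in F1 and 0.022 (SE 0.079, unadjusted p = 0.785) in F2. Those of Tet3 were -0.015 (SE 0.13, unadjusted p = 0.916) in F1 and -0.019 (SE 0.10, unadjusted p = 0.861) in F2 by edgeR. Tdg, which encodes the glycosylase that excises oxidised methylcytosine, was at 10.9 to 11.5 CPM in F1 saline and 10.6 to 13.01 CPM in F1 METH, with log2 fold changes of 0.071 (SE 0.11) in F1 and 0.084 (SE 0.092) in F2.

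The methyl-CpG-binding domain genes had log2 fold changes from -0.027 to 0.12 in F1 and from 0.0026 to 0.075 in F2. Mbd2, whose protein binds methylated CpG within NuRD, was at 40.3, 39.2, 36.3 and 43.7 CPM in F1 saline and 41.9, 44.9 and 41.7 CPM in F1 METH libraries. In F2 it was at 37.4, 46.6, 38.3 and 38.3 CPM in saline and 41.5, 45.1, 39.98 and 42.3 CPM in METH libraries. The groups overlapped in both generations, F2 saline replicate 2 being the highest of its generation, and log2 fold changes were 0.10 (SE 0.083, unadjusted p = 0.251) and 0.075 (SE 0.082, unadjusted p = 0.384) by edgeR. Mbd3, Mbd1 and the repair glycosylase gene Mbd4 likewise had overlapping groups in both generations.

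**Figure D3:**
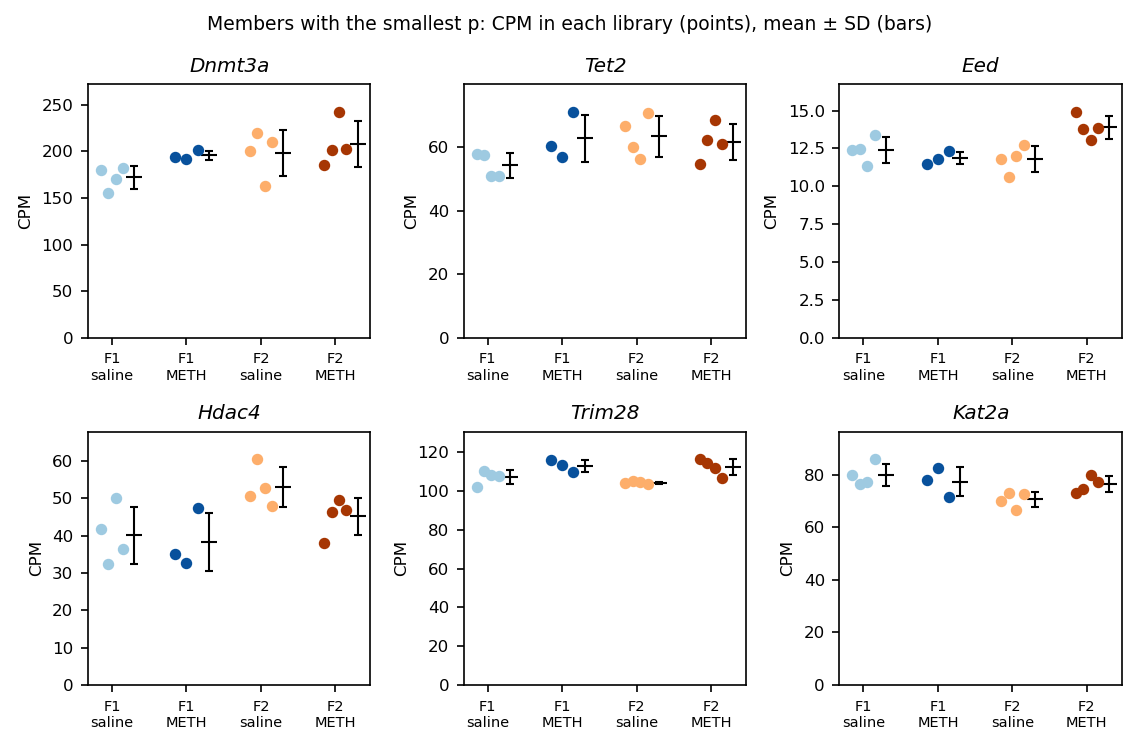
CPM of Dnmt3a, Tet2, Eed, Hdac4, Trim28 and Kat2a in each of the 15 libraries (points, by group) with mean ± SD (bars). METH libraries all lie above saline libraries for Dnmt3a in F1 and for Eed, Trim28 and Kat2a in F2, and treatment groups overlap for Tet2 and Hdac4 in both generations.

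Among the histone deacetylase genes, Hdac4 (gene ID 208727, chromosome 1, 91928779 to 92195702) had the smallest p, in F2. Its protein is a class IIa deacetylase that moves between cytoplasm and nucleus. It was at 50.6, 60.5, 52.6 and 47.99 CPM in F2 saline and 37.9, 46.3, 49.4 and 46.9 CPM in F2 METH libraries. Replicate 2 was the highest saline library and replicate 1 the lowest METH library, and METH replicate 3 lay above saline replicate 4, so the groups overlap. The log2 fold change by edgeR was -0.23 (SE 0.10, unadjusted p = 0.0369), with an adjusted p of 0.960. In F1 the gene was at 41.8, 32.4, 50.02 and 36.3 CPM in saline and 35.1, 32.6 and 47.3 CPM in METH libraries, and its log2 fold change was -0.067 (SE 0.17, unadjusted p = 0.708). F2 saline replicates 2 and 3 had been set apart as high in chaperone genes. Without these 2 libraries together, the F2 value of Hdac4 was -0.13 with an unadjusted edgeR p of 0.256.

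Hdac9, also class IIa, was at 17.4, 18.98, 19.8 and 18.8 CPM in F2 saline and 15.6, 16.8, 18.1 and 17.4 CPM in F2 METH libraries. In F1 it was at 17.7, 16.2, 22.2 and 11.1 CPM in saline and 12.5, 15.2 and 18.3 CPM in METH libraries, a wide spread in both groups. Log2 fold changes were -0.13 (SE 0.22, unadjusted p = 0.570) in F1 and -0.14 (SE 0.079, unadjusted p = 0.103) in F2 by edgeR. Hdac5, the most abundant class IIa gene, was at 209, 199, 215 and 266 CPM in F1 saline, 238, 201 and 252 CPM in F1 METH, 219, 249.7, 262 and 194 CPM in F2 saline and 196, 225, 254 and 206 CPM in F2 METH libraries. Its groups overlapped, with log2 fold changes of 0.051 (SE 0.12, unadjusted p = 0.684) and -0.070 (SE 0.11, unadjusted p = 0.520) by edgeR.

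Hdac7, the fourth class IIa gene, was at 23.6, 19.99, 19.9 and 33.8 CPM in F2 saline and 23.4, 27.1, 31.9 and 27.4 CPM in F2 METH libraries. Saline replicate 4 was the highest of the generation, and the groups overlap. In F2 its log2 fold change was 0.18 (SE 0.16, unadjusted p = 0.309) by edgeR. Without saline replicate 4 it was 0.37, with an unadjusted edgeR p of 0.00754 and an adjusted p of 0.424. Without the 2 F2 libraries above 100 CPM of Slc17a7 it was 0.38, with an unadjusted edgeR p of 0.0151 and an adjusted p of 0.779. Without saline replicates 2 and 3 together it was -0.068 with an unadjusted edgeR p of 0.684, so both its size and its sign rest on which libraries are kept. In F1 it was at 28.8, 27.6, 39.7 and 26.3 CPM in saline and 26.8, 23.8 and 42.8 CPM in METH libraries, and the edgeR fold change was 0.025 (SE 0.22, unadjusted p = 0.913) on the log2 scale. Without F1 METH replicate 3 that value was -0.28 with an unadjusted edgeR p of 0.160.

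The class I deacetylase genes are Hdac1, Hdac2, Hdac3 and Hdac8. The proteins of Hdac1, Hdac2 and Hdac3 are catalytic subunits of nuclear corepressor complexes. Hdac1 was at 14.6, 12.7, 13.5 and 13.7 CPM in F1 saline and 13.9, 12.7 and 14.8 CPM in F1 METH libraries, and at 12.4, 13.5, 14.7 and 14.2 CPM in F2 saline and 13.2, 14.3, 15.5 and 13.9 CPM in F2 METH libraries. Hdac2 was at 75.5, 74.7, 67.7 and 71.5 CPM in F1 saline and 71.4, 76.8 and 59.2 CPM in F1 METH libraries, and at 65.1, 67.8, 72.2 and 68.6 CPM in F2 saline and 78.4, 64.7, 62.9 and 73.6 CPM in F2 METH libraries. Both genes had overlapping groups in each generation. For Hdac1 the log2 fold changes were 0.017 (SE 0.11, unadjusted p = 0.875) in F1 and 0.053 (SE 0.090, unadjusted p = 0.569) in F2 by edgeR, and those of Hdac2 were -0.065 (SE 0.10, unadjusted p = 0.521) and 0.031 (SE 0.078, unadjusted p = 0.704). Hdac8 was at 9.10, 10.98, 9.29 and 12.5 CPM in F1 saline and 11.4, 11.3 and 12.3 CPM in F1 METH libraries, and at 13.7, 13.3, 11.98 and 10.2 CPM in F2 saline and 14.1, 13.2, 13.4 and 12.8 CPM in F2 METH libraries. Its log2 fold changes were 0.16 (SE 0.14, unadjusted p = 0.282) and 0.12 (SE 0.11, unadjusted p = 0.276) by edgeR, and both comparisons overlapped. Hdac3 had -0.027 (SE 0.079) and 0.078 (SE 0.081).

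Hdac11 was at 211, 239.9, 207 and 265 CPM in F1 saline and 238, 214 and 202 CPM in F1 METH libraries, and at 203, 218, 204 and 222 CPM in F2 saline and 228, 214, 227 and 226 CPM in F2 METH libraries. Its log2 fold changes were -0.081 (SE 0.11, unadjusted p = 0.466) in F1 and 0.079 (SE 0.055, unadjusted p = 0.180) in F2 by edgeR, and the difference between them was 0.15 (SE 0.11, unadjusted p = 0.201). The class IIb genes Hdac6, which encodes a largely cytoplasmic tubulin deacetylase, and Hdac10 had values of 0.0026 (SE 0.086) and 0.078 (SE 0.18) in F1 and of 0.13 (SE 0.11) and 0.17 (SE 0.12) in F2. Sirt1, an NAD-dependent deacetylase gene, was at 14.2, 15.2, 13.7 and 14.1 CPM in F1 saline, 13.5, 15.98 and 12.6 CPM in F1 METH, 13.9, 14.3, 17.3 and 15.5 CPM in F2 saline and 14.4, 15.1, 16.02 and 14.8 CPM in F2 METH libraries. Its log2 fold changes by edgeR were -0.025 (SE 0.11, unadjusted p = 0.831) in F1 and -0.018 (SE 0.092, unadjusted p = 0.851) in F2, with intervals of -0.28 to 0.23 and -0.22 to 0.19.

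Of the acetyltransferase genes, Kat2a (gene ID 14534, chromosome 11, 100704746 to 100712485), the catalytic subunit gene of the SAGA coactivator complex, was at 70.1, 73.1, 66.6 and 72.7 CPM in F2 saline and 73.1, 74.8, 80.05 and 77.4 CPM in F2 METH libraries. The lowest METH library lay just above the highest saline library. The log2 fold change by edgeR was 0.11 (SE 0.058, unadjusted p = 0.0799). In F1 the gene was at 79.9, 76.7, 77.4 and 86.1 CPM in saline and 78.1, 82.7 and 71.5 CPM in METH libraries, and its log2 fold change was -0.047 (SE 0.078, unadjusted p = 0.562). The difference between generations was 0.15 (SE 0.088, unadjusted p = 0.110) by edgeR.

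Crebbp, a coactivator acetyltransferase gene, was at 76.3, 79.8, 72.5 and 79.3 CPM in F1 saline and 79.6, 77.7 and 80.4 CPM in F1 METH libraries, and at 78.3, 97.6, 79.5 and 80.1 CPM in F2 saline and 74.00, 80.7, 96.04 and 75.5 CPM in F2 METH libraries. Its close relative Ep300 was at 74.3, 65.4, 64.8 and 54.9 CPM in F1 saline and 69.7, 61.02 and 76.9 CPM in F1 METH libraries, and at 73.6, 97.3, 82.5 and 77.8 CPM in F2 saline and 75.05, 69.9, 93.8 and 80.7 CPM in F2 METH libraries. In F2 both genes were highest in saline replicate 2 and METH replicate 3, and the groups overlapped in each generation. By edgeR, log2 fold changes of Crebbp were 0.043 (SE 0.066, unadjusted p = 0.532) in F1 and -0.041 (SE 0.10, unadjusted p = 0.689) in F2. Those of Ep300 were 0.094 (SE 0.12, unadjusted p = 0.441) in F1 and -0.053 (SE 0.11, unadjusted p = 0.627) in F2 by edgeR. Kat2b had 0.054 (SE 0.11) and -0.095 (SE 0.077).

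PRC2 methylates H3K27 and needs the core subunits encoded by Eed and Suz12 beside Ezh1 or Ezh2. Eed (gene ID 13626, chromosome 7, 89954654 to 89980976) had the smallest p of the 42 in F2. It was at 11.8, 10.6, 12.02 and 12.7 CPM in F2 saline and 14.9, 13.8, 13.1 and 13.9 CPM in F2 METH libraries, and every METH library lay above every saline library. Its group means were 11.8 ± 0.862 CPM and 13.9 ± 0.761 CPM (SD, n = 4 each). The log2 fold change by edgeR was 0.24 (SE 0.091, unadjusted p = 0.0241), with an adjusted p of 0.960. In F1 it was at 12.4, 12.5, 11.3 and 13.4 CPM in saline and 11.5, 11.8 and 12.3 CPM in METH libraries, which overlap, with a log2 fold change of -0.061 (SE 0.11, unadjusted p = 0.576). The difference between generations was 0.29 (SE 0.12, unadjusted p = 0.0329) by edgeR, with an adjusted p of 0.975.

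Ezh1 was at 54.99, 55.7, 54.1 and 61.8 CPM in F1 saline and 59.5, 56.05 and 55.97 CPM in F1 METH libraries, and at 49.4, 55.1, 56.6 and 54.9 CPM in F2 saline and 56.1, 60.4, 58.3 and 50.5 CPM in F2 METH libraries. Ezh2 was at 8.36, 7.09, 6.77 and 9.94 CPM in F1 saline and 9.01, 8.48 and 9.32 CPM in F1 METH libraries, and at 8.54, 7.03, 7.54 and 7.47 CPM in F2 saline and 8.16, 8.26, 9.76 and 6.48 CPM in F2 METH libraries. Groups overlapped for both genes. Log2 fold changes of Ezh1 were 0.013 (SE 0.074, unadjusted p = 0.865) in F1 and 0.060 (SE 0.073, unadjusted p = 0.427) in F2 by edgeR. Those of Ezh2 were 0.15 (SE 0.16, unadjusted p = 0.356) and 0.094 (SE 0.14, unadjusted p = 0.506) by edgeR, and its F2 interval of -0.21 to 0.40 holds the Eed value of 0.24. Suz12 had 0.048 (SE 0.089) in F1 and -0.0082 (SE 0.071) in F2. No test compared these genes with Eed.

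Glial markers also differed in F2 beside Eed and Hdac4. All 10 astrocyte markers and all 10 microglial markers were lower in METH mice, with medians of -0.18 and -0.24 on the log2 scale, and no marker of any list passed the adjusted threshold. The astrocyte markers summed to 4347 to 5668 CPM in saline and 4225 to 4789 CPM in METH libraries, and the microglial markers to 363 to 555 CPM and 376 to 436 CPM, ranges that overlap. Oligodendrocyte precursor markers were lower for 7 of 8 (median -0.18), summing to 633 to 889.5 CPM in saline and 611 to 682 CPM in METH libraries. Mature oligodendrocyte markers were lower for 9 of 10 (median -0.14; 6921 to 12988 CPM against 7678 to 9650.5 CPM) and endothelial markers for 7 of 10 (median -0.098; 352 to 393 CPM against 309 to 358 CPM). Spiny projection neuron markers were higher for 10 of 12 (median 0.051). The cortical, proliferation and erythrocyte lists had 5 of 10, 7 of 12 and 2 of 5 markers higher. No marker of these lists was at 0 in all libraries. With the cortical marker mean as a covariate, Eed and Hdac4 each kept an unadjusted edgeR p under 0.05 in F2. No member passed the adjusted threshold in that fit. The part of the other lists in the Eed and Hdac4 values was not tested in this way. Without F2 saline replicates 2 and 3 together, the Eed value was 0.18 with an unadjusted edgeR p of 0.140.

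Among the H3K9 methyltransferase genes, Ehmt2 was at 279.9, 267, 283 and 331 CPM in F1 saline and 317, 295 and 290.2 CPM in F1 METH libraries, and at 269, 275, 260.1 and 280.1 CPM in F2 saline and 266, 297, 301 and 284 CPM in F2 METH libraries. The groups overlapped, with log2 fold changes of 0.052 (SE 0.091, unadjusted p = 0.586) and 0.083 (SE 0.058, unadjusted p = 0.180) by edgeR. Its partner gene Ehmt1 was at 62.2, 41.02, 35.9 and 35.8 CPM in F1 saline libraries, replicate 1 being far above the rest, and at 36.7, 37.1 and 39.3 CPM in F1 METH libraries. Its log2 fold change of -0.21 (SE 0.19, unadjusted p = 0.286) by edgeR was the lowest of the 42 in F1. Without saline replicate 1 it was 0.0039 with an unadjusted edgeR p of 0.967. In F2 it was -0.092 (SE 0.10). Setdb1, whose protein is recruited by the Trim28 product, had 0.092 (SE 0.10) and -0.0031 (SE 0.073), and the heterochromatin enzyme genes Suv39h1 and Suv39h2 had 0.025 (SE 0.10) and 0.18 (SE 0.18) in F1 and 0.055 (SE 0.081) and 0.052 (SE 0.15) in F2.

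Dot1l, the H3K79 methyltransferase gene, was at 170.5, 137, 143 and 151 CPM in F1 saline and 166, 154 and 191 CPM in F1 METH libraries, and at 162, 167, 129 and 184 CPM in F2 saline and 139, 167, 189 and 157 CPM in F2 METH libraries. METH replicate 3 was the highest in F1, and the groups overlapped in both generations, with log2 fold changes of 0.18 (SE 0.10, unadjusted p = 0.120) and 0.023 (SE 0.12, unadjusted p = 0.845) by edgeR. Kmt2a, an H3K4 methyltransferase gene, had -0.028 (SE 0.11) and -0.025 (SE 0.12). The demethylase gene Kdm1a, which acts on H3K4, was at 55.04, 54.5, 55.2 and 58.8 CPM in F1 saline, 57.1, 53.4 and 50.7 CPM in F1 METH, 46.2, 49.6, 52.98 and 52.01 CPM in F2 saline and 52.8, 55.4, 44.1 and 54.2 CPM in F2 METH libraries. Kdm6b, an H3K27 demethylase gene, was at 44.2, 41.7, 30.3 and 42.5 CPM in F1 saline, 46.7, 30.5 and 42 CPM in F1 METH, 33.4, 51.4, 46.3 and 46.6 CPM in F2 saline and 39.4, 50.3, 64.7 and 43.1 CPM in F2 METH libraries. Both demethylase genes had overlapping groups. The log2 fold changes of Kdm1a were -0.057 (SE 0.072, unadjusted p = 0.449) in F1 and 0.041 (SE 0.083, unadjusted p = 0.634) in F2 by edgeR, and those of Kdm6b were 0.0022 (SE 0.17, unadjusted p = 0.990) and 0.15 (SE 0.16, unadjusted p = 0.371).

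Trim28 (gene ID 21849, chromosome 7, 13024152 to 13031032) encodes the corepressor that joins KRAB zinc finger proteins to H3K9 methylation. It was at 104, 105, 104 and 104 CPM in F2 saline and 117, 114, 112 and 107 CPM in F2 METH libraries. The saline libraries lay close together (SD 0.615 CPM, n = 4) and all below the METH libraries. The log2 fold change by edgeR was 0.11 (SE 0.051, unadjusted p = 0.0595). In F1 it was at 102, 111, 109 and 108 CPM in saline and 116, 114 and 109.9 CPM in METH libraries, which overlap, with a log2 fold change of 0.078 (SE 0.064, unadjusted p = 0.253).

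The third comparison tested whether the change with founder treatment differed between generations, as the interaction over all 15 libraries. Of 19308 genes edgeR called 1 (0.00518%), Aox4, which is none of the 42 and is named because it was the only call. Of the 42 genes 0 passed, with a smallest adjusted p of 0.975, and DESeq2 and limma-voom also called 0. At an unadjusted p under 0.05 there was 1 of 42, Eed, against 4.88% of all genes, and DESeq2 and limma-voom each gave 1 as well. The interaction was above 0 for 21 genes and below 0 for 21. Its 95% interval lay within 1.5-fold for 36 of 42 genes, against 45.8% of all genes and 83.6% of the 110 other chromatin genes tested. Among markers, the interaction was below 0 for all 10 microglial (median -0.41), all 10 endothelial (-0.32) and all 8 oligodendrocyte precursor genes (-0.25). It was also below 0 for 9 of 10 astrocyte, 9 of 10 oligodendrocyte and 9 of 12 spiny projection neuron markers. Above 0 were all 10 cortical, 9 of 12 proliferation and neuroblast and all 5 erythrocyte markers. No marker passed the adjusted threshold, and the part of the lists other than the cortical one was not tested. Side by side, the F1 and F2 changes had the same sign for 27 of 42 genes (19 above 0 and 8 below 0 in both), against 51.2% of the 17838 genes tested in both; the comparisons share no library, and this count was not tested.

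A list of 111 other chromatin genes of the same pathways, of which 110 were tested, gave 0 calls by edgeR in either generation or for the difference. At an unadjusted edgeR p under 0.05 there were 3, 4 and 3 of 110, against 4.18%, 4.77% and 4.88% of all genes. By direction these were 3 higher and 0 lower in F1, 3 and 1 in F2, and 2 and 1 for the difference. The 3 genes with the smallest p in each direction are named here whatever their p, so those beyond these counts did not reach 0.05. In F1 they were, on the higher side, the deubiquitinase partner gene Mbd6 at 0.23, the H4K20 methyltransferase gene Kmt5c at 0.27 and the demethylase gene Kdm1b at 0.30 on the log2 scale. On the lower side were the Polycomb genes Cbx2 at -0.40 and Asxl1 at -0.14, and the acetyltransferase gene Kat5 at -0.13.

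In F2 the uracil glycosylase gene Smug1 was at 0.26, the arginine methyltransferase gene Carm1 at 0.16 and the corepressor scaffold gene Sin3a at 0.15 on the log2 scale. The H3K4 methyltransferase gene Setd7 was at -0.20, the Y-linked demethylase relative Uty at -0.13 and the heterochromatin protein gene Cbx1 at -0.11. For the difference, Cbx2 was at 0.57, Carm1 at 0.18 and Asxl1 at 0.16, and Uty at -0.38, Jmjd1c at -0.21 and Sirt2 at -0.23. The median log2 fold change of the 110 genes was 0.00049 in F1 and 0.00066 in F2, close to that of all genes.

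A further fit, chosen after seeing the data, followed how the 42 genes varied with cell type markers between animals of the same group. Each gene's slope on the mean log2 CPM of a marker list was estimated in edgeR with the 4 group means kept, for 9 lists. On the mean of the 10 cortical excitatory neuron markers, 2 of 42 genes passed an adjusted p of 0.05, against 4.83% of all genes. That count is near the share over all genes, so it is not read as a trait of the 42. These were the class IIa deacetylase genes Hdac7 (slope 0.16, SE 0.035, adjusted p = 0.0133) and Hdac9 (slope 0.13, SE 0.030, adjusted p = 0.0174), in log2 units of the gene per log2 unit of the marker mean. The highest F1 values of Hdac7, in saline replicate 3 and METH replicate 3, belong to the libraries with the most Slc17a7, at 525 and 396 CPM.

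Within F1 alone both genes again passed (4.52% of all genes), and within F2 alone 0 of 42 passed (0.365% of all genes), with slopes of 0.16 for Hdac7 and 0.037 for Hdac9. Without those 2 libraries 0 of 42 passed (0.689% of all genes), with slopes of 0.11 for Hdac7 and 0.10 for Hdac9, so the calls rest on these libraries. On the mean of the 12 spiny projection neuron markers the slopes were negative for Hdac7 (-1.25), Hdac10 (-0.74) and Hdac9 (-0.82). These were the 3 of 42 called, against 5.83% of all genes, a count also near that share. The spiny marker mean was lowest in the same 2 libraries, F1 saline replicate 3 (8.48) and F1 METH replicate 3 (8.67). The fit on this list was not repeated without them or within each generation. The other 7 lists, astrocyte, oligodendrocyte, oligodendrocyte precursor, microglial, endothelial, proliferation and neuroblast, and erythrocyte, gave 0 of 42. Of all genes, edgeR called 0.0466% on the oligodendrocyte mean, 0.0104% on the proliferation and neuroblast mean and 0% on the others, so nothing about the members is read from these counts. Hdac4 had a slope of 0.085 on the cortical mean (adjusted p = 0.162 by edgeR), Hdac8 one of -0.068 (adjusted p = 0.174), and Dnmt3a and Eed had slopes of -0.0015 and -0.0059.

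**Figure D4:**
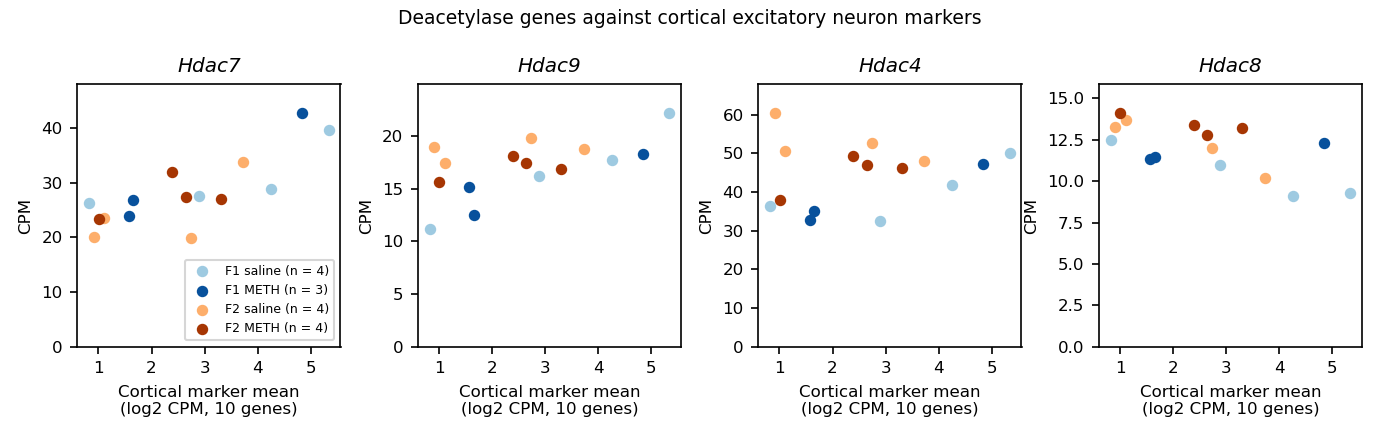
CPM of Hdac7, Hdac9, Hdac4 and Hdac8 against the mean log2 CPM of 10 cortical excitatory neuron markers; each point is 1 of 15 libraries, coloured by group. Hdac7 and Hdac9 lie highest in the library with the highest or next highest marker mean.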

How the data were processed

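Striatal RNA from 15 male mice was sequenced. The submitters' processing notes name build mm10 and the tools HISAT2 2.1.0, StringTie 2.1.3b, Trimmomatic and bcl2fastq 2.20.0. Whether counting used strand is not stated there, so overlapping genes on opposite strands cannot be told apart. The deposited counts are whole numbers and were tested as raw counts, and the deposited FPKM and TPM are the authors' length-scaled values, per the file headers. TPM was used for levels and FPKM was not used.

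Groups came from sample titles, and the 45 value columns were matched by name. Each generation was fitted in edgeR 4.0.16 (R 4.3.3; glmQLFit, glmQLFTest, TMM, filterByExpr with a minimum count of 10) on its whole table, with Benjamini-Hochberg adjusted p under 0.05 over all genes tested. The difference was the interaction over all 15 libraries. Intervals are 95% intervals from the quasi-likelihood standard error. The scripts were tested on simulated data. The members, lists, tests and most alternatives were chosen with earlier results of these data known. Alternatives were DESeq2 1.42.0, limma 3.58.1 (voom, and trend on log2 of TPM + 1 and TPM + 0.1), other filters, 1 fit of all libraries, a replicate block, a cortical marker covariate and left-out libraries. Slopes on marker lists were added after seeing the data.

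Full statistics were given for the 6 members with the smallest p in F1, the 6 in F2, the 4 for the difference and 17 members listed by name, 26 in all; the other 16 are given more briefly. Of the other chromatin genes, the 3 with the smallest p in each direction and comparison were named. Positions are 1-based in GRCm38.p6, the same build as mm10. The 21 pairs of replicates differed beyond sampling noise (chi-square per degree of freedom 16.1 to 65.8), so each library counts as 1 replicate. Python 3.11.15 and matplotlib 3.10.9 drew the figures.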

Additional observations from a re-analysis of the deposited data

Results flagged for a closer look

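In 8 of the 126 groups of 4 animals examined, 1 library stood apart from the other 3 by Dixon's criterion at 95%, where chance alone gives about 6.3. Tet3 was at 129 CPM in F2 METH replicate 3 and at 100.2 to 102 CPM in the others of its group. Mbd2 was at 46.6 CPM in F2 saline replicate 2 (others 37.4 to 38.3), and Crebbp was at 97.6 CPM in the same library (others 78.3 to 80.1). Mbd3 was at 156 CPM in F1 saline replicate 4 (others 114.8 to 116 CPM), as was Kdm1a at 58.8 CPM (others 54.5 to 55.2). Hdac6 was at 62.1 CPM in F1 saline replicate 3 (others 56.6 to 57.4) and Kat2b at 27.3 CPM in F1 saline replicate 1 (others 23.7 to 23.8). Hdac11 was at 214 CPM in F2 METH replicate 2, below the others (226 to 228 CPM).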

How the results depend on the processing

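The members called, and the other chromatin genes called, numbered 0 in both generations and for the difference under every alternative run. Over 1661 refits of 78 values named here, 176 had the other sign, none of them with an unadjusted p under 0.05 in either fit. Among all genes, the count called in F1 was 0 and became 7 with DESeq2, 3 with limma-voom, and 1 with TPM + 1, with TPM + 0.1, with 1 fit of all 15 libraries and without libraries above 100 CPM of Slc17a7; with single libraries left out it ran from 0 to 2. In F2 it was 0 and became 9 with DESeq2, 1 with limma-voom, 1 without the Slc17a7-rich libraries and 4 without F2 saline replicates 2 and 3, and ran from 0 to 1 with single libraries left out. For the difference it was 1, and became 5 with DESeq2 and 0 with limma-voom, both TPM fits, the mean CPM filter, the cortical covariate, the replicate block, and without either set of libraries; it ran from 0 to 2 with single libraries left out. The cause was not tested. Deviations of libraries sharing a title number correlated from -0.0078 to 0.355 in F1 and from -0.071 to 0.037 in F2. The same-numbered library was the best match for F1 replicate 3 and F2 replicate 1 only. The F1 replicate 3 libraries are those with the most Slc17a7. These values do not settle whether shared numbers pair animals. With the replicate block, 0 genes were called in either generation or for the difference.

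The unadjusted p under 0.05 of Dnmt3a in F1 was lost without METH replicate 1, 2 or 3 and without saline replicate 2 or 3. It was also lost without the libraries above 100 CPM of Slc17a7, with both TPM fits and with 1 fit of all libraries. That of Eed in F2 was lost without METH replicate 1, without saline replicate 2 and without saline replicates 2 and 3 together. That of Hdac4 in F2 was lost without METH replicate 1 or 2, without saline replicate 2 or 3 and without both of these saline libraries. It was also lost with both TPM fits and with 1 fit of all libraries. That of Eed for the difference was kept in 19 of 26 alternatives. Counts limit Dnmt3b most, the member with the widest interval.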

Other observations

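Uhrf1, whose product acts with Dnmt1 at replication forks, had a slope of 1.05 (SE 0.31) on the mean log2 CPM of 12 proliferation and neuroblast markers over the 15 libraries, with group means kept. The unadjusted edgeR p was 0.00405 and the adjusted p was 0.668, so it did not pass. At an unadjusted edgeR p under 0.05 there was 1 of 42 on this list, against 4.23% of all genes. Nothing about the members is read from that count. The fit was chosen after seeing the data.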
